A study of Mus musculus with 36 samples.

Results

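Fatty acid and triglyceride synthesis was followed through 32 genes, taken by symbol from the 32544 symbols of the count table for mouse liver. All 32 were found, and all 32 were among the 15338 genes that passed the filter on low counts. By role, 6 supply acetyl-CoA and NADPH or activate their precursors (Slc25a1, Acly, Acss2, Me1, Pgd, Aacs), 4 belong to fatty acid synthesis itself (Acaca, Acacb, Fasn, Thrsp), 5 elongate fatty acids (Elovl1, Elovl2, Elovl3, Elovl5, Elovl6) and 4 desaturate them (Scd1, Scd2, Fads1, Fads2). A further 3 are transcription factors (Srebf1, Mlxipl, Nr1h3), 7 assemble triglyceride (Gpam, Agpat2, Agpat3, Lpin1, Lpin2, Dgat1, Dgat2) and 3 control its breakdown (Pnpla2, Pnpla3, G0s2).

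The study followed livers of male C57BL/6N mice that were 8 to 10 weeks old at the start and were given carbon tetrachloride (CCl4), a solvent that injures hepatocytes and is used to model liver fibrosis. CCl4 (1 g/kg, dissolved in olive oil) was injected into the peritoneum 2 times a week for 2, 6 or 12 months, control mice had olive oil alone for 2 or 12 months, and the liver was collected 6 days after dosing ended. A further group is titled month 0 control, while its treatment label also says olive oil. Each of these 6 groups held 6 libraries, and no oil group was made at month 6. All mice shared strain, sex and standard diet, and no transgene was used.

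In hepatocytes, citrate exported from mitochondria is split to cytosolic acetyl-CoA, carboxylated to malonyl-CoA and built into palmitate by fatty acid synthase, with NADPH from malic enzyme and the pentose phosphate pathway. Palmitate is then elongated, desaturated and attached in steps to glycerol 3-phosphate to form triglyceride, which is stored in droplets or exported in very low density lipoprotein. Insulin acts on this programme through SREBP-1c (Srebf1), glucose through ChREBP (Mlxipl) and oxysterols through LXR alpha (Nr1h3), and many of its genes follow feeding and the time of day.

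6 of the 32 genes were called higher with CCl4 at both month 6 and month 12, namely Me1, Pgd, Acaca, Scd2, Lpin2 and Pnpla3, as were 6.15% of all tested genes. At month 2 Me1 was called lower, Scd2 higher and the other 4 were not called. The promoter windows of 5 of the 6 are shown because the results below turn on these calls, and Scd2 had no entry in the promoter table. Each window runs from 250 bases before to 50 bases after an annotated RefSeq start on build GRCm38.p6, 5′ to 3′ on the gene's strand, and capitals mark matches to the motifs described after them.
Me1 (chr9:86695865-86696164, minus strand): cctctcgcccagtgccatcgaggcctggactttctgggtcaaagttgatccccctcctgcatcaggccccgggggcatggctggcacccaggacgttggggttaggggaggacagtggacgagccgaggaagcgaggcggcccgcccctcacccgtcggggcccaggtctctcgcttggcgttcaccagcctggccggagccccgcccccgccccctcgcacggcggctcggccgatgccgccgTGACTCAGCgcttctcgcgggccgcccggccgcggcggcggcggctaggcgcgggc
Pgd (chr4:149166656-149166955, minus strand): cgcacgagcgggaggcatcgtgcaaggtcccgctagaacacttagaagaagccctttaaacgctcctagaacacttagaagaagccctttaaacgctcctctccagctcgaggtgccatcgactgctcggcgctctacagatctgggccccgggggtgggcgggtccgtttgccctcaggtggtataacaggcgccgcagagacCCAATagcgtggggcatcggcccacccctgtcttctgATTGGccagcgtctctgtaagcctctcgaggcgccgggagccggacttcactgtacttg
Acaca (chr11:84195188-84195487, plus strand): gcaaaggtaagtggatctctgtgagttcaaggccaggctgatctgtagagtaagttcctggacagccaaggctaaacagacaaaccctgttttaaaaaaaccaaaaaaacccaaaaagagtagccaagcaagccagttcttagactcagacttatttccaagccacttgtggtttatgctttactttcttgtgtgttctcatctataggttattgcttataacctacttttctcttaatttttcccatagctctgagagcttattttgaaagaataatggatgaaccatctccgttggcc
Lpin2 (chr17:71183282-71183581, plus strand): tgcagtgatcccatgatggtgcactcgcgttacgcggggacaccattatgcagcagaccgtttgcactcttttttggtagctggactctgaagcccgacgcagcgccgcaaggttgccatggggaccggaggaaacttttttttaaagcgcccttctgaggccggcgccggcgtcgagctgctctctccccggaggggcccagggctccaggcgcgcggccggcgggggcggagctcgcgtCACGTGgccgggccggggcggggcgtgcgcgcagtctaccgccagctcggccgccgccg
Pnpla3 (chr15:84167566-84167865, plus strand): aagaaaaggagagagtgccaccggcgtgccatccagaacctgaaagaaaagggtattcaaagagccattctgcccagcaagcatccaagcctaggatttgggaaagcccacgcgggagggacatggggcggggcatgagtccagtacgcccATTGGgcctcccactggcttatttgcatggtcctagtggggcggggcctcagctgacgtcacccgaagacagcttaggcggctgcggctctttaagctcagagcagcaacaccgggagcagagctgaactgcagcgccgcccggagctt

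Both strands of each window were searched for 5 motifs. These were the sterol regulatory element TCACNCCAC bound by SREBPs, the CCAAT box CCAAT, the E-box CACGTG, the antioxidant response element TGACNNNGC and the LXR direct repeat DR4, the hexamer AGGTCA repeated after a spacer. Counting the annotated start base as 0, the Me1 window held an antioxidant response element at -6 to 2. The Pgd window held CCAAT boxes at -46 to -42 and -9 to -5, and at annotated starts not printed, Pgd had an antioxidant response element at 3 to 11, Me1 a CCAAT box at -208 to -204 and Lpin2 CCAAT boxes at -233 to -229, -165 to -161 and -57 to -53. An E-box lay at -9 to -4 in Lpin2 and a CCAAT box at -99 to -95 in Pnpla3. The Acaca window, which is an internal start within the gene, matched none of the 5. By the GENCODE positions, the unprinted windows of Pgd, Me1 and Lpin2 with these matches and the printed Lpin2 window also lie inside their genes.

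Of the 32 genes, 26 had an entry, with 37 windows in all. The CCAAT box was in 43.2% of these windows and in 37.4% of the 32851 windows of all genes. The antioxidant response element was in 10.8% against 12.4% and the E-box in 10.8% against 7.15%. The sterol regulatory element was in 2.7%, a single window of Mlxipl that lies inside the gene, against 1.24%. The direct repeat was in 0 of the 37 windows and in 0.0152% of all. These matches describe letters and are no evidence of binding.

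The libraries held 19403247 to 28917545 counts each. The labels do not say in words that each library is a separate mouse, so p-values measure the spread between libraries. Summed hepatocyte marker levels were 66900 to 121000 CPM (counts scaled to a common library size with TMM factors) across the 36 libraries, as the liver label implies, although single hepatocyte markers were lower at month 12 (given with that comparison). A few libraries stood apart in these genes. Replicate 6 of month 12 CCl4 was the lowest of its group in 21 of 32 genes, and it also had the highest summed markers of that group for hepatocytes (102000 CPM), monocyte-derived macrophages (1220 CPM), cholangiocytes (1090 CPM), adipocytes (69.5 CPM), intestinal epithelium (214 CPM) and neutrophils (43.4 CPM). The macrophage and cholangiocyte lists share the gene Spp1, so these sums are not independent. Replicate 2 of month 2 oil was lowest in 18 genes and replicate 2 of month 6 CCl4 in 15, while replicate 3 of month 2 CCl4 was highest in 16. The month 2 CCl4 replicate 6 carried an intestinal epithelium marker sum of 538 CPM against a group median of 55.6 CPM. Markers of other tissues were present in many libraries. Summed pancreas acinar markers ran from 9.21 to 24200 CPM over the 36 libraries, and 3 libraries exceeded 10000 CPM, replicate 5 of month 2 CCl4 (24200 CPM), replicate 4 of month 12 oil (19900 CPM) and replicate 2 of month 2 oil (13000 CPM). Leaving these 3 out, a choice made after seeing the data, gave counts called higher and lower of 1 and 2 at month 2, 7 and 1 at month 6 and 6 and 6 at month 12. A second set of 4 libraries, taken from an earlier analysis of these data, was replicates 1 and 6 of month 2 CCl4 and replicate 2 of each oil group. Without these 4, the counts called higher and lower were 1 and 2 at month 2, 8 and 1 at month 6, 6 and 6 at month 12, and without replicate 6 of month 12 CCl4 the month 12 counts were 10 and 6. Other calls that rest on single libraries are given with their values beside the results.

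Levels differed widely between these genes. Per kilobase of exon, Scd1, the main hepatic stearoyl-CoA desaturase, stood first in month 2 oil at 1570 ± 408 CPM per kb (SD, n = 6), followed by Thrsp, a lipogenic coactivator, at 147 ± 89.1 and Dgat2, which adds the last acyl chain of triglyceride, at 128 ± 12.1. The lowest were Pgd at 3.36 ± 0.589, Scd2 at 1.70 ± 0.34 and Pnpla3 at 0.98 ± 0.529 CPM per kb. With 12 months of CCl4 the order changed most for Scd2, a stearoyl-CoA desaturase paralogue best known from brain, and for Elovl3, an elongase of very long saturated and monounsaturated chains that follows the time of day. Scd2 stood 31st of 32 in month 12 oil (2.31 ± 0.633 CPM per kb) and 13th in month 12 CCl4 (35.8 ± 9.05). Elovl3 stood 2nd in month 12 oil (197 ± 84.7) and 32nd in month 12 CCl4 (2.42 ± 1.74).

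Spread between libraries of 1 group also differed by gene. The pooled SD within groups on the log2 scale was largest for Elovl3 (1.23), Pnpla3 (1.06), Lpin1 (0.79), Thrsp (0.70) and G0s2 (0.61). It was smallest for Agpat3 (0.14), Elovl1 (0.16), Nr1h3 (0.20) and Acaca (0.20). The same size of change was therefore easier to call in the latter genes.

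**Figure D1:**
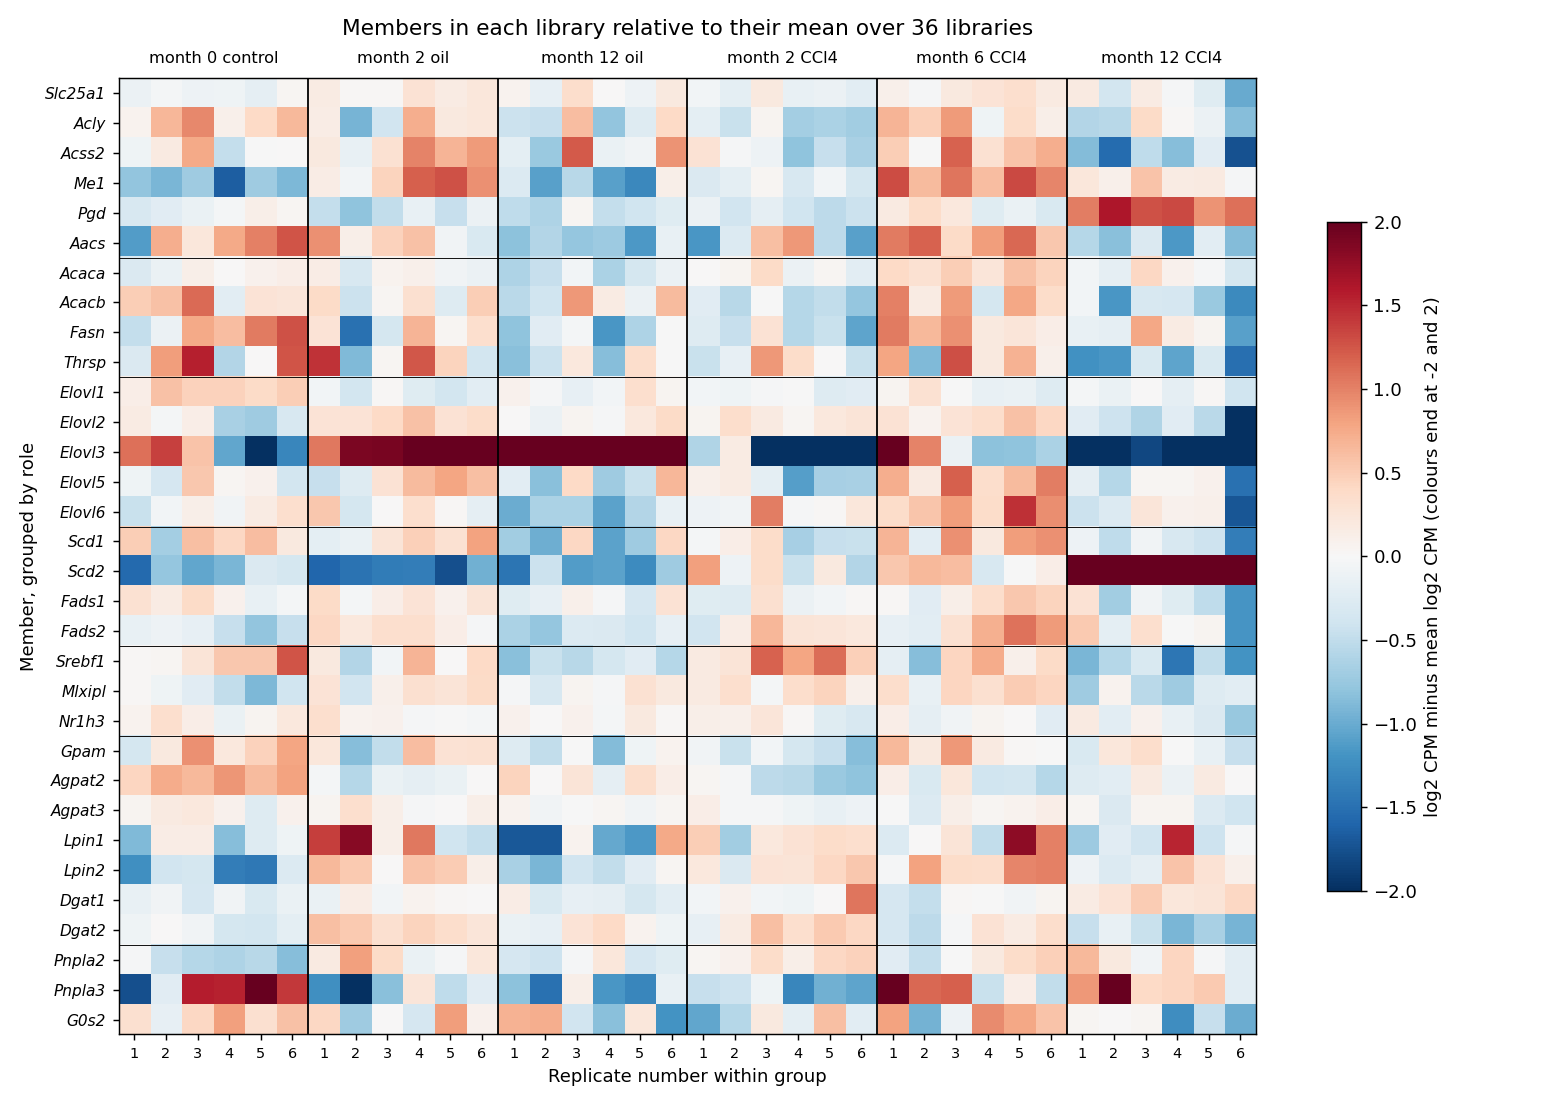
Level of each of the 32 genes (rows, grouped by role) in each of the 36 libraries (columns, by group and replicate), as log2 CPM minus the gene's mean over all libraries, with colours ending at -2 and 2. Elovl3 is dark red in both oil groups and dark blue with CCl4 at month 12, Scd2 shows the reverse, and replicate 6 of month 12 CCl4 is the lowest of its group in 21 rows.

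CCl4 was first compared with oil at month 2. Few of the genes were called. Scd2 was called higher, and Elovl3 and malic enzyme Me1 were called lower, so that 1 gene rose and 2 fell of 32 (edgeR quasi-likelihood test, Benjamini-Hochberg adjusted p below 0.05). The background was 10.4% of all tested genes called, 7% higher and 3.38% lower, so the share of the 32 called was not above it. The groups did not overlap for 1 gene higher (Scd2) and 1 lower (Elovl3), against 4.64% and 2.4% of all genes. The median log2 fold change of the 32 was -0.21 against 0.00 for all tested genes, and 8 of 32 were above 0. Under library totals without TMM the split was 4 higher and 2 lower, and more of all tested genes were called higher too (counts in the closing section).

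With no oil group of its own, month 6 CCl4 was set against both oil groups together, month 2 and month 12, weighted equally on the log scale. More of the genes were higher than at month 2. Called higher were 9, the NADPH producers Me1 and Pgd, the acetoacetyl-CoA synthetase Aacs, the acetyl-CoA carboxylase Acaca, Elovl6, Scd2, the delta-6 desaturase Fads2, the phosphatidate phosphatase Lpin2 and the lipid droplet protein Pnpla3, and 1 was called lower, Elovl3. Of all tested genes 11.4% were called, 7.71% higher and 3.68% lower. The 32 had a median log2 fold change of 0.38 against 0.00 for all genes, and 26 were above 0. Acaca and Scd2 lay above every oil library of both months, as 0.867% of all tested genes did, and none lay below all of them, as 0.945% did. Against the month 2 oil group alone 3 genes were called higher and 0 lower, whereas against the month 12 oil group alone 9 were called higher and 1 lower. The share of all tested genes called against month 2 oil alone is not given here, so those counts are not set against a background. Fewer of all tested genes were called higher against month 12 oil alone than against both oil groups (counts in the closing section). On library totals alone the split was 24 and 1, and calls among all tested genes shifted to higher as well (counts in the closing section).

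Month 12 gave 7 genes called higher and 6 called lower, in a comparison where 49.1% of all tested genes were called, 25.9% higher and 23.2% lower. The share of these genes that was called was therefore not above the background. Higher were Me1, Pgd, Acaca, Scd2, Lpin2, Dgat1 and Pnpla3, and lower were the acetyl-CoA synthetase Acss2, the carboxylase Acacb, the elongases Elovl2 and Elovl3, Mlxipl and Dgat2. Scd2, Pgd and Dgat1 lay above every oil library and Elovl2 and Elovl3 below every one, where 12.1% and 10.2% of all genes did so. Their median log2 fold change was -0.14 against 0.01 for all tested genes, and 14 of 32 were above 0. Without TMM, on library totals alone, the split was 18 higher and 2 lower, because this scaling raised the median of all genes by 0.56. Hepatocyte markers were lower in the same comparison, with 6 of 8 called lower and a median log2 fold change of -0.86, while their summed level was 67500 to 113000 CPM with oil and 67000 to 102000 CPM with CCl4. Their part in the genes called lower was not tested. On library totals the median rose by 0.20 at month 2 and by 0.31 at month 6, and the changes reported here are relative to the median gene.

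**Figure D2:**
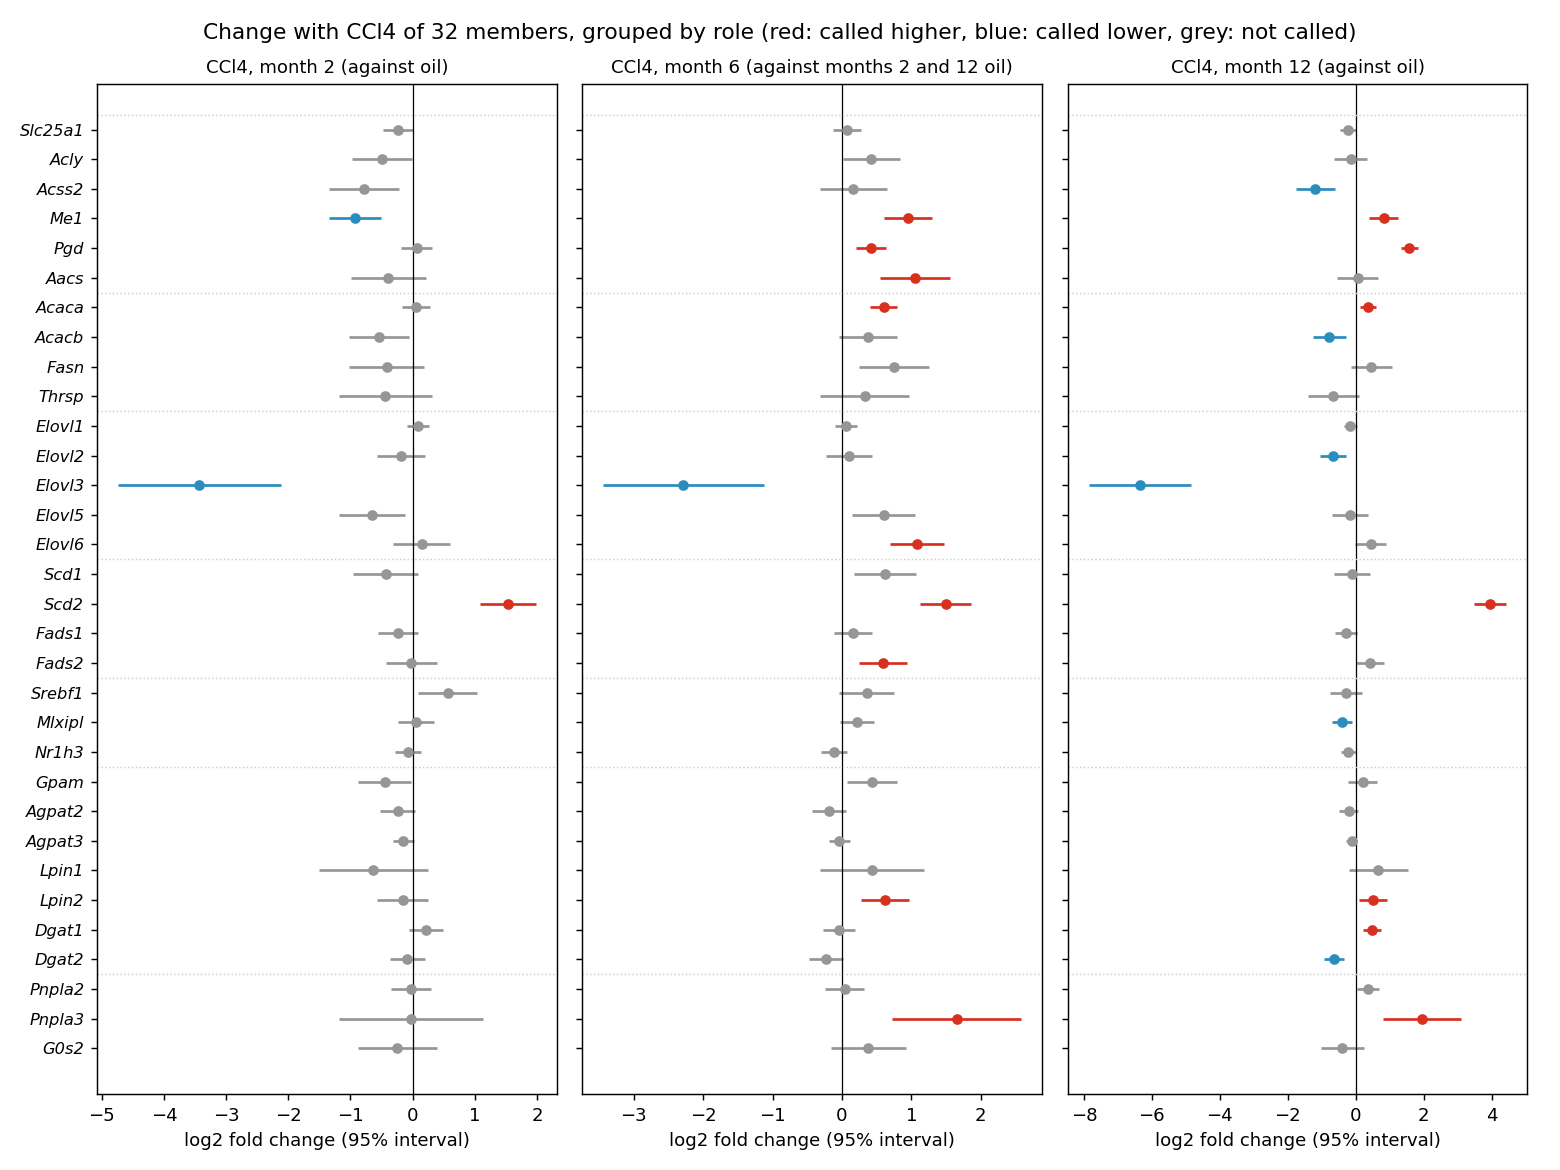
Fitted log2 fold change of each of the 32 genes (rows, grouped by role) with CCl4 at months 2, 6 and 12 (panels, each with its own scale), with 95% intervals. Red points were called higher and blue points lower, Scd2 and Elovl3 lie farthest from 0 in each panel, apart from Pnpla3 at month 6, and the month 12 blue point of Mlxipl lies above 0 (0.15) on library totals alone.

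The month 2 and month 6 comparisons share the month 2 oil libraries, and the month 6 and month 12 comparisons share the month 12 oil libraries, so their values are set side by side without a test of likeness. Of the 32 genes, 16 were called in at least 1 of the 3 CCl4 comparisons and 16 in none, where 53.2% of all tested genes were called at least once, so the share was not above the background. Only Me1, Elovl3 and Scd2 were called in all 3, as 4.96% of all tested genes were, and among these the direction was the same each time for Elovl3 and Scd2. In such bulk samples fewer cells of a type and less RNA per cell cannot be told apart.

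Among the genes that supply acetyl-CoA and NADPH, Me1, the cytosolic malic enzyme, was lower with CCl4 at month 2 and higher at months 6 and 12. Its lowest, median and highest levels at month 2 were 67.4, 113 and 168 CPM with oil and 54.6, 59.0 and 72.1 CPM with CCl4. With CCl4 at month 6 they were 107, 142 and 174 CPM, and at month 12 they were 28.6, 40.2 and 75.9 CPM with oil and 68.8, 78.7 and 104 CPM with CCl4. The groups overlapped at months 2 and 12, and the oil level itself was lower at month 12. The fitted log2 change was -0.93 (SE 0.21, adjusted p = 0.00429) at month 2, 0.95 (SE 0.18, adjusted p = 0.000413) at month 6 and 0.82 (SE 0.21, adjusted p = 0.00183) at month 12. Against month 2 oil alone the month 6 value was 0.28 (adjusted p = 0.481), and against month 12 oil alone it was 1.62.

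Pgd, a dehydrogenase of the oxidative pentose phosphate pathway, rose late. The lowest, median and highest levels at month 12 were 18.6, 21.1 and 29.3 CPM with oil and 53.4, 65.0 and 87.7 CPM with CCl4, without overlap. The log2 fold change was 1.58 (SE 0.13, adjusted p = 1.67e-11). At month 2 the levels were 16.3, 20.6 and 26.3 CPM with oil and 19.9, 21.8 and 26.4 CPM with CCl4, a log2 fold change of 0.07 that was not called. At month 6 they were 23.1, 29.3 and 36.9 CPM, with a log2 fold change of 0.41 (adjusted p = 0.0118) that was 0.34 (adjusted p = 0.0626) without replicate 2 of month 6 CCl4 and 0.39 (adjusted p = 0.0593) against month 12 oil alone.

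Acss2, which makes acetyl-CoA from acetate, was lower with CCl4 at month 12. Its lowest, median and highest levels were 135, 209 and 523 CPM with oil and 67.1, 124 and 192 CPM with CCl4, so that the groups overlapped. The fitted log2 change was -1.19 (SE 0.29, adjusted p = 0.000895). At month 2 its levels were 202, 317 and 447 CPM with oil and 128, 186 and 273 CPM with CCl4, a log2 fold change of -0.78 that was not called (adjusted p = 0.0775) but was called without replicate 1 of month 2 CCl4 (-0.93, adjusted p = 0.046), and at month 6 it was 0.16.

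Aacs, which activates acetoacetate in the cytosol, was higher at month 6 only. With CCl4 at month 6 its lowest, median and highest levels were 91.9, 135 and 159 CPM. The oil levels were 57.0, 86.4 and 132 CPM at month 2 and 31.7, 42.0 and 63.1 CPM at month 12. All 6 month 6 libraries lay above the month 12 oil libraries, and they overlapped those of month 2. The log2 fold change was 1.05 (SE 0.26, adjusted p = 0.00609), and 0.54 (adjusted p = 0.31) against month 2 oil alone. Neither the citrate carrier Slc25a1 (-0.23, 0.07 and -0.23 at months 2, 6 and 12) nor ATP citrate lyase Acly (-0.49, 0.42 and -0.15) was called. Slc25a1 was called at month 12 without month 12 oil replicate 2 (-0.30), and on library totals alone it was called higher at months 6 (0.39) and 12 (0.31), as was Acly at month 6 (0.73).

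Acetyl-CoA carboxylase makes the malonyl-CoA for chain building (Acaca) and, in its mitochondrial form, for the control of fatty acid oxidation (Acacb). The 2 genes differed at month 12. Acaca had lowest, median and highest levels of 147, 185 and 205 CPM in month 2 oil, 119, 140 and 177 CPM in month 12 oil and 219, 247 and 276 CPM in month 6 CCl4, which did not overlap with either oil group. Its log2 fold change was 0.60 (SE 0.10, adjusted p = 7.4e-05) at month 6. At month 12 its CCl4 levels were 145, 179 and 245 CPM, a log2 fold change of 0.36 (adjusted p = 0.0113) that was 0.29 (adjusted p = 0.0532) without replicate 1 of month 12 oil and 0.28 (adjusted p = 0.0557) without replicate 4, and 0.28 (adjusted p = 0.0554) without the 3 libraries high in pancreas markers. Acacb stood at 83.3 ± 33.1 CPM (SD, n = 6) in month 12 oil and 48.5 ± 15.7 CPM with CCl4, a log2 fold change of -0.78 (SE 0.25, adjusted p = 0.00969), which was -0.24 (adjusted p = 0.399) on library totals alone.

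Fatty acid synthase Fasn was not called in any of the 6 comparisons. Its mean level was 633 ± 262 CPM in month 2 oil, 474 ± 150 CPM in month 2 CCl4, 906 ± 253 CPM in month 6 CCl4, 455 ± 137 CPM in month 12 oil and 621 ± 247 CPM in month 12 CCl4 (SD, n = 6). Its log2 fold changes were -0.42, 0.76 (adjusted p = 0.0526) and 0.45 at months 2, 6 and 12, with a 95% interval at month 12 of -0.15 to 1.05. The month 6 value was called without month 2 oil replicate 4 (0.84) or 6 (0.79) or month 12 oil replicate 6 (0.80), and with DESeq2 (0.74, adjusted p = 0.0337). Thrsp had -0.44, 0.33 and -0.67, none called.

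Among elongases, Elovl3 fell at all 3 times. At month 2 its lowest, median and highest levels were 70.6, 149 and 213 CPM with oil and 4.42, 6.28 and 38.0 CPM with CCl4. At month 6 they were 19.2, 26.6 and 136 CPM with CCl4. At month 12 they were 203, 321 and 608 CPM with oil and 0.337, 4.70 and 9.68 CPM with CCl4. The oil and CCl4 libraries did not overlap at months 2 and 12, and at month 6 the highest CCl4 library, replicate 1, lay within the month 2 oil range. The fitted log2 change was -3.43 (SE 0.67, adjusted p = 0.00086), -2.29 (SE 0.59, adjusted p = 0.009) and -6.35 (SE 0.77, adjusted p = 3.63e-08) at months 2, 6 and 12.

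Single libraries moved the size of the Elovl3 change. Without replicate 2 of month 2 CCl4 the month 2 value was -4.07, and without replicate 1 of month 6 CCl4 the month 6 value was -2.91. Against month 2 oil alone the month 6 value was -1.59 (adjusted p = 0.109). The fitted 12-month change corresponds to 0.0123 of the oil level.

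Elovl6, which lengthens palmitate to stearate, rose at month 6. The lowest, median and highest levels were 142, 179 and 303 CPM with CCl4 at month 6, 86.6, 111 and 160 CPM in month 2 oil and 52.4, 71.1 and 99.7 CPM in month 12 oil. The month 6 libraries all lay above month 12 oil and overlapped month 2 oil. The log2 fold change was 1.08 (SE 0.20, adjusted p = 0.000321), and 0.71 (adjusted p = 0.0564) against month 2 oil alone. With CCl4 the levels were 103, 110 and 223 CPM at month 2 and 33.7, 104 and 130 CPM at month 12, with log2 fold changes of 0.14 and 0.43, not called. The lowest month 12 value was that of replicate 6, without which the log2 fold change was 0.63 (adjusted p = 0.0134).

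Elovl2, an elongase of long polyunsaturated chains, fell at month 12. Its lowest, median and highest levels were 270, 299 and 381 CPM with oil and 58.1, 211 and 250 CPM with CCl4, without overlap. The fitted log2 change was -0.68 (SE 0.20, adjusted p = 0.00438), and it was -0.13 (adjusted p = 0.564) on library totals alone and -0.66 (adjusted p = 0.062) in a fit of the compared groups only. At months 2 and 6 it was -0.19 and 0.10, with CCl4 levels of 301, 334 and 371 CPM at month 2 and 308, 364 and 437 CPM at month 6. Elovl5, which acts on the same chains (-0.66, 0.60 and -0.17), and the very long chain elongase Elovl1 (0.09, 0.05 and -0.16) were not called with CCl4, although Elovl5 was at month 6 without month 12 oil replicate 6 (0.71).

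Of the desaturases, Scd2 was higher with CCl4 each time. At month 2 its lowest, median and highest levels were 7.26, 9.11 and 12.7 CPM with oil and 16.5, 25.6 and 43.4 CPM with CCl4. At month 6 they were 19.8, 31.5 and 38.6 CPM with CCl4. At month 12 they were 8.93, 11.6 and 18.3 CPM with oil and 149, 179 and 282 CPM with CCl4. No CCl4 library reached down to an oil library at any of the 3 times. The log2 fold change was 1.53 (SE 0.23, adjusted p = 3.14e-05), 1.5 (SE 0.19, adjusted p = 1.03e-06) and 3.95 (SE 0.25, adjusted p = 2.13e-14) at months 2, 6 and 12, or 2.88, 2.82 and 15.5 times the oil level.

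Scd1, the abundant paralogue, did not share this. Its mean level was 7660 ± 2000 CPM in month 2 oil, 5680 ± 1600 CPM in month 2 CCl4, 9540 ± 2650 CPM in month 6 CCl4, 5080 ± 2540 CPM in month 12 oil and 4720 ± 1290 CPM in month 12 CCl4 (SD, n = 6). The log2 fold changes were -0.43, 0.61 (adjusted p = 0.0774) and -0.11, not called. At month 12 the 95% interval was -0.63 to 0.42. The month 6 value of Scd1 passed the threshold without replicate 2 of month 6 CCl4 (0.74), replicate 3 (0.69) or 6 (0.71) of month 12 oil, or replicate 6 of month 2 oil (0.68). Scd2 amounted to 0.137 to 0.578% of the Scd1 level in month 12 oil and 2.56 to 9.32% in month 12 CCl4, with medians of 0.25% and 3.55%. Scd1 and Scd2 lie on chromosome 19 (mm10), Scd1 at chr19:44394455-44407879 and Scd2 at chr19:44293674-44306864. Reads of these paralogues could be split between them, which was not tested, and the smaller count is the less certain.

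Scd2 is also made by cells other than hepatocytes, and markers of other cells were called in both directions at month 12. Of all tested genes 25.9% were called higher and 23.2% lower at month 12. At month 12 the summed level of 8 monocyte-derived macrophage markers was 73.7 to 151 CPM with oil and 393 to 1220 CPM with CCl4, and 8 of 8 were called higher. The 9 adipocyte markers summed to 10.1 to 25.1 CPM with oil and 26.4 to 69.5 CPM with CCl4, none of them at 0 in the whole group, and of 4 tested 1 was called higher and 3 lower. The 6 cholangiocyte markers summed to 42.0 to 96.1 CPM and 215 to 1090 CPM, with 3 called higher. The gene Spp1 is in both the macrophage and the cholangiocyte list, so their sums are not independent. The 8 stellate cell and fibroblast markers summed to 535 to 1030 CPM with oil and 535 to 670 CPM with CCl4, with 1 called higher and 4 lower. Of 6 Kupffer cell markers 0 were called higher and 2 lower, and of 6 endothelial markers 3 were called higher and 2 lower. The 6 cell cycle markers summed to 14.8 to 27.5 CPM and 52.4 to 107 CPM, and 6 of 6 were called higher. Their part in the Scd2 result was not tested. Replicate 6 of month 12 CCl4 had its group's highest macrophage, cholangiocyte, adipocyte and hepatocyte sums and its lowest stellate cell and fibroblast sum. Its Scd2 level was within the range of the other 5, and a single library cannot decide on such a part.

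Fads2, the delta-6 desaturase of polyunsaturated fatty acids, was higher at month 6 at 274 ± 98.4 CPM, against 227 ± 24.7 CPM in month 2 oil and 145 ± 22.6 CPM in month 12 oil (SD, n = 6). The fitted log2 change was 0.59 (SE 0.18, adjusted p = 0.0254). Its call was lost when replicate 4 (0.55), 5 (0.44) or 6 (0.50) of month 6 CCl4 was left out, with limma-voom (0.51), without the set of 4 libraries (0.54), without the 3 high in pancreas markers (0.59, adjusted p = 0.0505) or against month 2 oil alone (0.27). At months 2 and 12 it was -0.02 and 0.42, and the month 12 value was called without replicate 6 of month 12 CCl4 (0.59, adjusted p = 0.0104). Fads1, the delta-5 desaturase, had -0.23, 0.16 and -0.28, none called, with -0.42 and a call at month 12 without replicate 1 of month 12 CCl4.

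**Figure D3:**
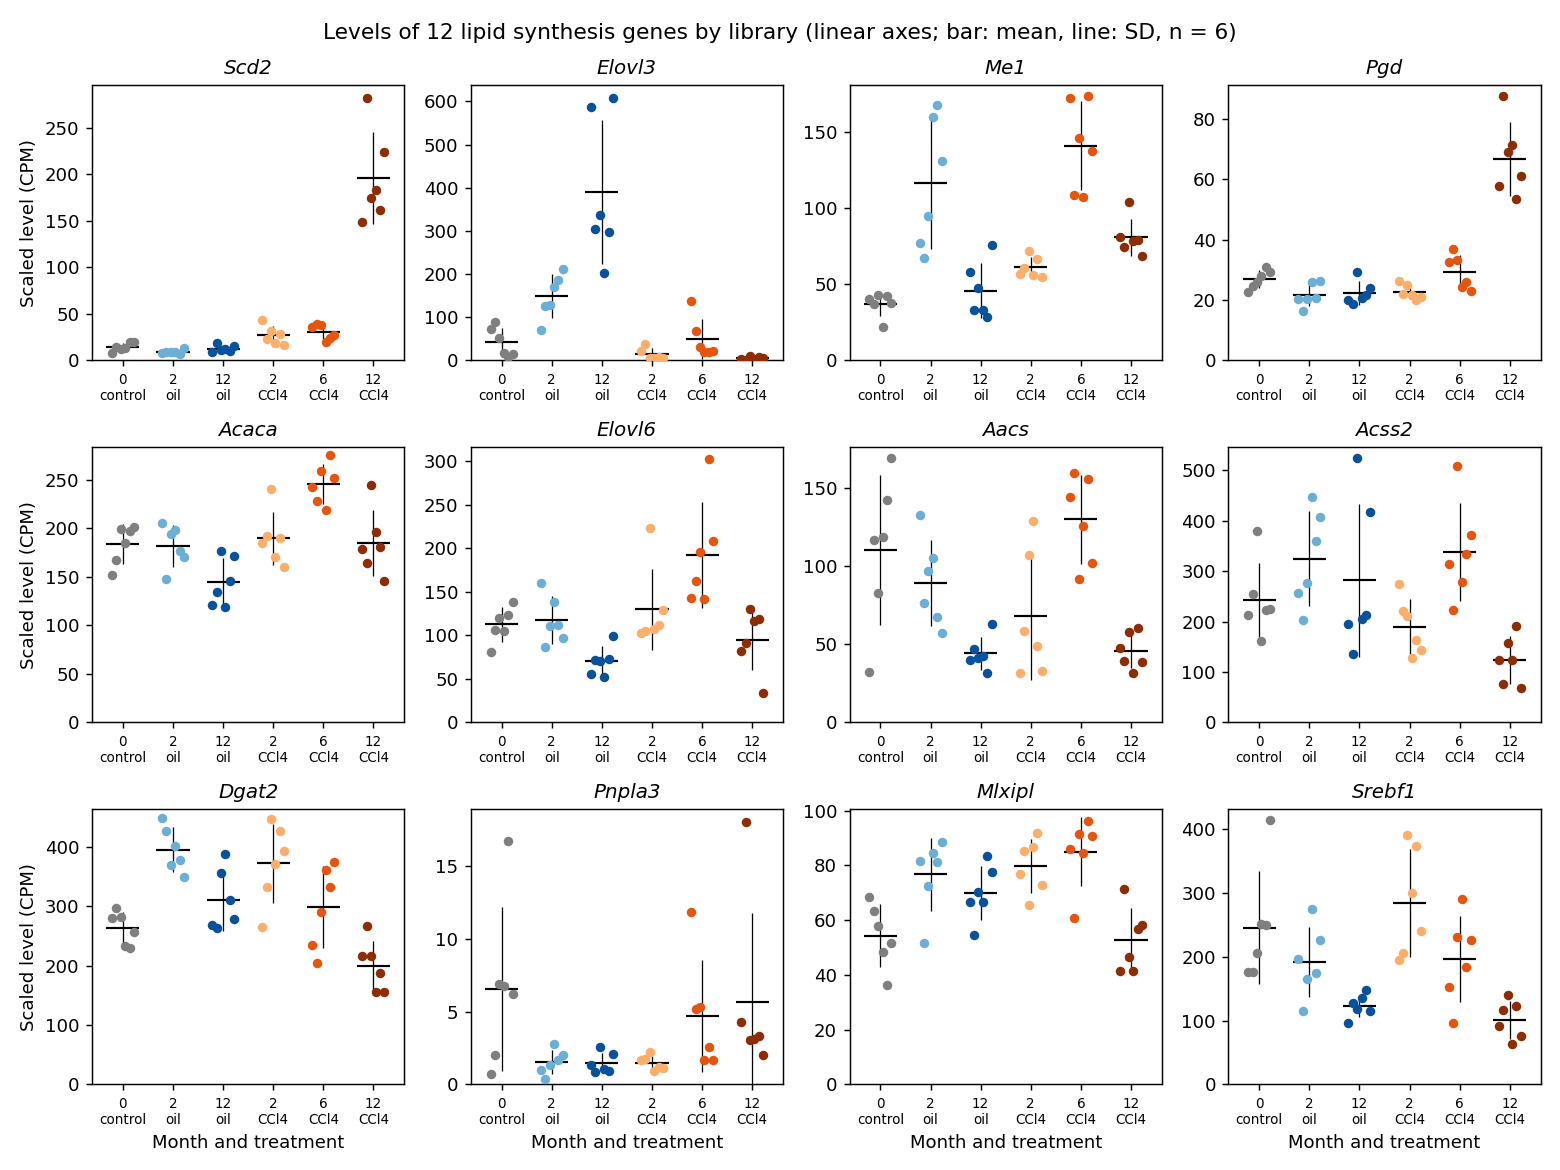
Levels in TMM-scaled CPM (linear axes) of 12 of the genes in the 36 libraries, by month and treatment, with 1 point per library, a bar at the mean and a line of 1 SD. Scd2 in month 12 CCl4 sits between 149 and 282 CPM, above all other groups, and Elovl3 in the same libraries lies at 9.68 CPM or less. For Pnpla3, 1 CCl4 library each at months 6 and 12 lies far above the rest of its group, and month 0 libraries reach 16.7 CPM.

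Of the 3 transcription factors, Mlxipl was the only one called with CCl4, lower at month 12. The lowest, median and highest levels there were 54.4, 68.5 and 83.4 CPM with oil and 41.3, 51.7 and 71.3 CPM with CCl4, so that the groups overlapped. The log2 fold change was -0.41 (SE 0.15, adjusted p = 0.0198), but it was 0.15 on library totals alone and the call ended when replicate 1 (-0.33), 3 (-0.35) or 4 (-0.33) of month 12 CCl4 was left out. At months 2 and 6 it was 0.06 and 0.21, with levels of 51.8, 81.3 and 88.6 CPM in month 2 oil, 65.5, 81.0 and 91.7 CPM in month 2 CCl4 and 60.7, 88.4 and 96.3 CPM in month 6 CCl4.

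Srebf1 had lowest, median and highest levels of 115, 185 and 276 CPM in month 2 oil and 195, 270 and 391 CPM in month 2 CCl4. In month 6 CCl4 they were 95.7, 205 and 290 CPM. At month 12 they were 96.8, 122 and 147 CPM with oil and 63.0, 104 and 139 CPM with CCl4. Within each comparison the CCl4 and oil ranges overlapped, and the log2 fold changes of 0.56 (adjusted p = 0.132), 0.35 and -0.28 were not called. On library totals alone Srebf1 was called higher at months 2 (0.765, adjusted p = 0.0241) and 6 (0.665, adjusted p = 0.008). The counts do not separate the SREBP-1a and SREBP-1c transcripts of this gene.

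Nr1h3 stayed between 49.0 and 105 CPM in all 36 libraries. Its lowest, median and highest levels were 80.4, 84.4 and 104 CPM in month 2 oil and 65.9, 86.3 and 97.6 CPM in month 2 CCl4, and 70.5, 80.8 and 90.7 CPM in month 6 CCl4. At month 12 they were 80.5, 85.9 and 94.4 CPM with oil and 49.0, 73.0 and 93.6 CPM with CCl4. The log2 fold changes were -0.08, -0.11 and -0.22, and none was called, with -0.28 and a call at month 12 without replicate 1 of month 12 CCl4. Of 8 targets of the liver X receptors outside the 32 genes, 2 rose at month 2, 2 rose and 2 fell at month 6, and 3 rose and 0 fell at month 12. The shares of all tested genes called at these months were 10.4%, 11.4% and 49.1%. The cholesterol transporter Abcg1 was called at all 3 times (0.48, 0.50 and 1.21, with 0.39 at month 2 and no call there without replicate 3 of month 2 CCl4). Abcg5 and Abcg8, which form the sterol exporter of the canalicular membrane, were called lower at month 6 (-0.56 and -0.78) and higher at month 12 (1.12 and 0.73), and the month 6 call of Abcg5 ended when replicate 1 (-0.44) or 2 (-0.41) of month 6 CCl4 was left out.

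In triglyceride assembly the acyltransferases that add the first and second chain were not called with CCl4. Gpam, the mitochondrial glycerol 3-phosphate acyltransferase, had log2 fold changes of -0.45, 0.43 and 0.21 at months 2, 6 and 12. Agpat2, which acylates lysophosphatidate, had -0.24, -0.19 and -0.21, and its family member Agpat3 had -0.15, -0.04 and -0.13. The phosphatidate phosphatase Lpin1 varied widely within groups (62.4 to 298 CPM in month 12 CCl4), and its log2 fold changes of -0.63, 0.43 and 0.67 were not called. Without month 12 oil replicate 6 the month 12 value was 1.12 (adjusted p = 0.0395). Lpin2, its relative, was called higher at months 6 (0.63, SE 0.18, adjusted p = 0.0164) and 12 (0.51, SE 0.21, adjusted p = 0.0413). Both calls were fragile, since the month 6 one ended when replicate 5 (0.54) or 6 (0.51) of month 6 CCl4 was left out and against month 2 oil alone (0.21). The month 12 one was lost in 10 of 23 alternatives, among them without month 12 oil replicates 1 to 5 (0.40 to 0.53) and without replicates 4 (0.41) or 5 (0.49) of month 12 CCl4.

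The last acylation showed a contrast at month 12. Dgat2, the enzyme tied to newly made fatty acids, fell, with lowest, median and highest levels of 263, 294 and 388 CPM with oil and 155, 202 and 267 CPM with CCl4, which overlapped narrowly. Its log2 fold change was -0.64 (SE 0.15, adjusted p = 0.000458), and -0.08 (adjusted p = 0.626) on library totals alone. At months 2 and 6 it was -0.09 and -0.23, with levels of 350, 389 and 449 CPM in month 2 oil, 264, 382 and 446 CPM in month 2 CCl4 and 205, 311 and 375 CPM in month 6 CCl4.

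Dgat1, the second enzyme of that step, stood at 14.7 ± 1.87 CPM in month 12 oil and 20.5 ± 1.90 CPM with CCl4 (SD, n = 6), without overlap. Its log2 fold change was 0.48 (SE 0.14, adjusted p = 0.00417), and it was 0.22 and -0.04 at months 2 and 6, not called. In month 2 CCl4 replicate 6, the library with the high intestinal marker sum, Dgat1 reached 34.6 CPM against 17.6 CPM or less in the other 5. Dgat1 is abundant in intestinal epithelium, and the part of such tissue in that value was not tested.

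Among genes of lipid breakdown, Pnpla3, a droplet-bound acyl hydrolase and target of SREBP-1c, was called higher at months 6 and 12 at low levels. At month 6 its lowest, median and highest levels were 1.66, 3.87 and 11.9 CPM, against 0.396, 1.48 and 2.75 CPM in month 2 oil and 0.832, 1.18 and 2.54 CPM in month 12 oil. At month 12 they were 2.02, 3.23 and 18 CPM with CCl4. The ranges overlapped each time, and 1 CCl4 library lay far above the rest at each of the 2 times. The fitted log2 change was 1.65 (SE 0.47, adjusted p = 0.0185) at month 6 and 1.95 (SE 0.58, adjusted p = 0.00581) at month 12. Without replicate 1 of month 6 CCl4 the first was 1.14 (adjusted p = 0.136), and it was not called against month 2 oil alone (1.62, adjusted p = 0.0749) or month 12 oil alone (1.68, adjusted p = 0.0719), with a replicate block (1.54, adjusted p = 0.0574), with limma-voom (1.4, adjusted p = 0.0932) or without the 3 libraries high in pancreas markers (1.5, adjusted p = 0.0518). Without replicate 2 of month 12 CCl4 the month 12 value was 1.13 (adjusted p = 0.0773). At month 2, with CCl4 levels of 0.939, 1.44 and 2.19 CPM, it was -0.03. The month 0 group had levels of 0.686, 6.48 and 16.7 CPM, with a median above that of each CCl4 group.

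Neither Pnpla2, the main triglyceride lipase of adipocytes and hepatocytes (-0.02, 0.04 and 0.36), nor its inhibitor G0s2 (-0.24, 0.38 and -0.39) was called with CCl4. Pnpla2 at month 12 had adjusted p = 0.0688, and 0.0281 without replicate 6 of month 12 CCl4, with a log2 fold change of 0.45. Leaving out replicate 3 or 5 of month 12 CCl4, or replicate 4 of month 12 oil, also gave a call, each at 0.43.

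Whether the CCl4 effect differed between months 12 and 2 was tested as an interaction. Among the 32 genes 3 were called with a higher effect at month 12 and 1 with a lower one, where 21.3% of all tested genes were called, 11.2% higher and 10.1% lower. On library totals alone the split was 13 and 1, and more of all tested genes were called higher too (counts in the closing section). Scd2 differed by 2.43 (SE 0.32, adjusted p = 1.28e-06), Me1 by 1.75 (SE 0.30, adjusted p = 7.31e-05) and Pgd by 1.51 (SE 0.18, adjusted p = 3.23e-07) on the log2 scale. Elovl3 differed by -2.92 (SE 0.89, adjusted p = 0.017), which was -2.28 (adjusted p = 0.0588) without replicate 2 of month 2 CCl4. These differences also hold any change of the oil level from month 2 to month 12, which was -1.34 for Me1 (called) and 1.39 for Elovl3 (not called). For Dgat1 the difference was 0.26 with all libraries and 0.51 (adjusted p = 0.00333) without replicate 6 of month 2 CCl4. Dgat2 (-0.55, adjusted p = 0.051) and Srebf1 (-0.85, adjusted p = 0.0717) missed the threshold and were called with DESeq2 (-0.55 and -0.85) and when some single libraries were left out, Dgat2 in 7 of these fits and Srebf1 in 3.

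The oil groups were then compared with each other. Between month 12 and month 2 oil 1 of 32 genes was called, Me1, lower at month 12 by a log2 fold change of -1.34 (SE 0.22, adjusted p = 0.0036). Only 11 of 15338 genes (0.0717%) were called in this comparison, 0.0391% higher and 0.0326% lower. Unadjusted p was below 0.05 for 14 of the 32 and for 11.4% of all tested genes, and DESeq2 called 0 higher and 2 lower, Me1 and Lpin2. In the edgeR fit Lpin2 (-0.82, adjusted p = 0.08), Aacs (-1.01, adjusted p = 0.163), Elovl6 (-0.74, adjusted p = 0.191) and Lpin1 (-1.33, adjusted p = 0.222) had lower and Elovl3 (1.39, adjusted p = 0.367) higher levels at month 12, none of them called. Fads2 (-0.64, adjusted p = 0.193) was the only gene whose oil groups did not overlap, as 0.841% of all genes did in that direction, and none of the 32 did so in the other, where 0.528% did.

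Levels of circadian clock genes were also read in the same groups. The log2 ratio of Arntl, which encodes the clock protein BMAL1, to Dbp, a clock output gene that peaks in the opposite phase, had a median of -4.72 (range -5.99 to -3.09) in month 2 oil and 1.67 (range -4.32 to 3.41) in month 12 oil. With CCl4 its median was -5.93, -3.55 and -0.86 at months 2, 6 and 12, and it was 2.21 in the month 0 group. Of 15 clock genes, 14 had unadjusted p below 0.05 between the oil groups and 0 were called, against 11.4% and 0.0717% of all tested genes. The sources used here do not give the hour of sampling, and its part in these results was not tested. With this ratio as a covariate the counts called higher and lower were 1 and 2 at month 2, 10 and 2 at month 6, 6 and 6 at month 12, and 0 and 1 between the oil groups. The shares of all tested genes called in that fit at months 2, 6 and 12 are not given here, so those counts are not set against a background.

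Between month 2 oil and month 0, 8 of the genes were called higher and 4 lower, and 31.3% of all tested genes were called, 14.8% higher and 16.4% lower. On library totals alone the split was 12 and 3, and more of all tested genes were called higher too (counts in the closing section). Higher at month 2 were Me1 (1.65, adjusted p = 9.22e-07), Lpin2 (1.17, adjusted p = 8.1e-05), Pnpla2 (0.77), Dgat2 (0.59), Mlxipl (0.50), Elovl3 (1.84), Elovl2 (0.57) and Fads2 (0.57). Lower were Elovl1 (-0.62, adjusted p = 6.55e-06), Agpat2 (-0.86, adjusted p = 3.67e-05), Pnpla3 (-2.11) and Scd2 (-0.64). The groups did not overlap for 5 genes higher and 2 lower, against 6.98% and 6.92% of all genes. Month 0 levels of Me1 (22.2, 39.1 and 42.8 CPM, lowest, median and highest) lay below every month 2 oil library. Those of Pnpla3 (0.686, 6.48 and 16.7 CPM), Elovl3 (6.80, 33.6 and 88.1 CPM) and Scd2 (8.35, 13.7 and 20.1 CPM) overlapped with month 2 oil.

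Several of these calls depended on single libraries. Elovl3 lost its call without month 0 replicate 4 (1.66), 5 (1.60) or 6 (1.65), and Elovl2 without month 0 replicate 4 (0.48), 5 (0.47) or 6 (0.53) or month 2 oil replicate 4 (0.52). The Scd2 call was lost without month 0 replicate 5 (-0.55) or 6 (-0.56) or month 2 oil replicate 1 (-0.61), 2 (-0.63) or 5 (-0.58). Fads2 lost its call in 9 of 23 alternatives, 6 of which left out 1 library. Without month 0 replicate 4, 5 genes were called higher.

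Of the 15 clock genes, 7 were called higher and 3 lower in month 2 oil than at month 0, against 14.8% and 16.4% of all tested genes. With the Arntl to Dbp ratio as a covariate, 3 of the 32 genes were called higher and 3 lower. The calls of Me1 (1.81), Lpin2 (1.05), Elovl3 (3.06), Elovl1 (-0.52) and Agpat2 (-0.54) were made in that fit too. Those of Fads2 (0.02), Dgat2 (0.13), Pnpla2 (0.35), Elovl2 (0.39), Mlxipl (0.40), Scd2 (-0.29) and Pnpla3 (-1.13) were not. Srebf1, which was not called without the covariate (-0.36), was called lower with it (-0.90, adjusted p = 0.0161). Sampling hour, age and the oil injections cannot be told apart here, and blood cell markers also differed, with 5 of 6 neutrophil markers lower and 5 of 6 erythroid markers higher in month 2 oil.

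**Figure D4:**
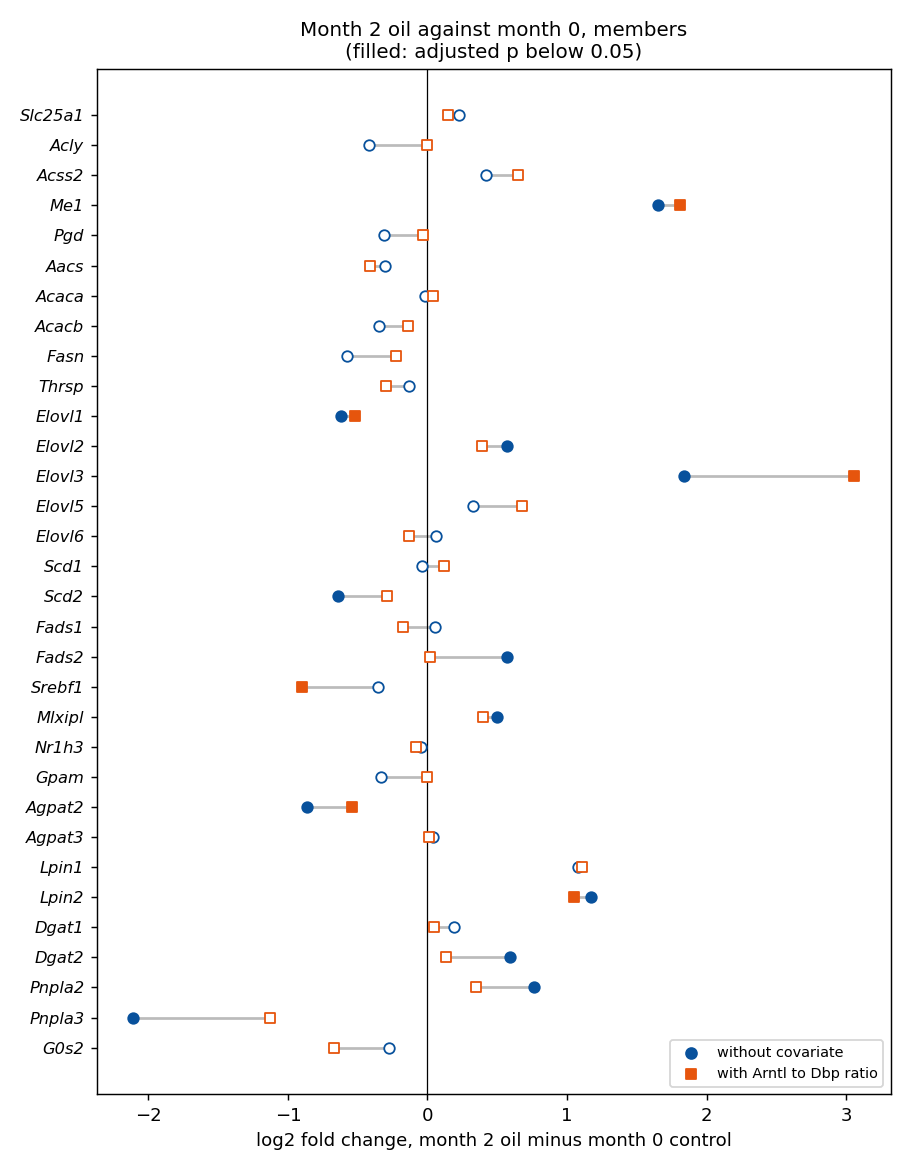
Log2 fold change of each of the 32 genes (rows) between month 2 oil and month 0, fitted without (circles) and with (squares) the log2 Arntl to Dbp ratio of each library as a covariate, with filled symbols for adjusted p below 0.05. Fads2, Dgat2 and Pnpla3 move toward 0 with the covariate and Elovl3 and Srebf1 move away from it. The ratio did not overlap between the compared groups, so these moves cannot be assigned to it.

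A list of 54 other genes of the same pathway, 53 of them tested, was read in the same way. At month 2, 4 were called higher and 4 lower, and at month 6, 5 and 0, where 10.4% and 11.4% of all tested genes were called. At month 12 they were 13 and 15, where 49.1% of all tested genes were called. The median log2 fold changes of the list were -0.08, 0.01 and -0.01. At month 2 the genes with the smallest p were Hsd17b12, the ketoacyl reductase of the elongation cycle (-0.53, adjusted p = 4.99e-05), Agpat9, a glycerol 3-phosphate acyltransferase also named Gpat3 (1.31, adjusted p = 0.00113), Gpd1, which makes glycerol 3-phosphate (-0.62, adjusted p = 0.00171), and the mitochondrial malic enzyme Me2 (0.67, adjusted p = 0.0231). Leaving out replicate 6 of month 2 CCl4 (0.41), or replicate 4 (0.63) or 5 (0.60) of month 2 oil, ended the Me2 call.

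At month 6 these were Agpat9 (1.38, adjusted p = 3.58e-05), the liver pyruvate kinase Pklr (0.62, adjusted p = 0.0101, not called against month 2 oil alone at 0.30), the acyltransferase Agpat4 (0.55, adjusted p = 0.0207) and the acyl-CoA synthetase Acsl3 (0.53, adjusted p = 0.0283). Leaving out replicate 2 (0.41) or 3 (0.49) of month 6 CCl4 ended the Agpat4 call, and the Acsl3 call ended without either of them (0.31 and 0.46) or without replicate 4 of month 12 oil (0.50). At month 12 they were Elovl7, an elongase of saturated long chains (4.30, adjusted p = 6.68e-13), the transketolase Tkt (0.95, adjusted p = 1.26e-10), Agpat9 (2.65, adjusted p = 1.05e-09) and Lpin3, the third lipin (1.5, adjusted p = 4e-07). Elovl7 stood at 1.00 ± 0.363 CPM in month 12 oil and at 19.9 ± 6.83 CPM with CCl4 (SD, n = 6), and Agpat9 at 2.05 ± 0.561 and 12.9 ± 3.97 CPM.

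A list of 10 genes that respond to fasting was read as a guide to feeding state. Of these 0 rose and 1 fell at month 2, 1 rose and 0 fell at month 6, and 4 rose and 2 fell at month 12. The shares of all tested genes called at these months were 10.4%, 11.4% and 49.1%. The hormone gene Fgf21 was lower at month 2 (-1.84, adjusted p = 0.0132) and higher at month 12 (3.88, adjusted p = 2.79e-08). The month 2 call was lost without the set of 4 libraries (-1.59, adjusted p = 0.0747). Its level was 0.539 ± 0.281 CPM in month 12 oil and 7.96 ± 3.00 CPM with CCl4. The part of feeding state in the levels of the 32 genes was not tested.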

How the data were processed

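Total RNA was taken from whole liver with TRIzol, depleted of ribosomal RNA and made into TruSeq stranded libraries for an Illumina HiSeq instrument, with reads mapped through Biojupies, per the labels' protocols. The authors deposited raw counts per gene symbol in 1 table of 36 libraries, and 0 per-sample columns were left unused. Genome build mm10, edgeR 3.30.3 and limma 3.44.3 are named per the submitters' processing notes. The counting annotation and whether counting used strand are not given in the sources used here, so reads of overlapping genes on opposite strands may not be told apart.

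Genes with low counts were removed with filterByExpr of edgeR 4.0.16 in R 4.3.3, which kept 15338, and libraries were scaled by TMM (factors 0.757 to 1.33). All 36 libraries entered 1 quasi-likelihood fit (glmQLFit, glmQLFTest), with p-values adjusted by Benjamini-Hochberg over all tested genes and called below 0.05. The SE is the log2 fold change divided by the root of its F statistic. There were 6 comparisons: CCl4 with its matched oil group at month 2 and at month 12, month 6 CCl4 against the mean of both oil groups, the month 12 minus month 2 CCl4 effect, and the oil groups against each other and month 0. Full values are given for the called genes with the 6 smallest p in each CCl4 comparison, for genes called in opposite directions and for Srebf1, Mlxipl and Nr1h3, and up to 4 genes with the smallest p from each other list. The members and lists were chosen with earlier results of these data known.

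Within groups, 90 pairs of libraries differed beyond sampling noise (chi-square per degree of freedom 22.88 to 261.5), so none was a copy. Alternatives included library totals, RLE factors, other filters, DESeq2 1.42.0, limma-voom 3.58.1, a replicate block, each library left out, single oil references and, chosen after seeing the data, the Arntl to Dbp ratio as a covariate and 3 libraries high in pancreas markers left out. Exon lengths and positions came from GENCODE vM21 (mm10) and promoters from RefSeq (GRCm38.p6).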

Additional observations from a re-analysis of the deposited data

Results flagged for a closer look

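In 16 of 192 tests of a gene in a group of 6, 1 library lay far from the other 5, where chance gives about 1 in 20 for independent, normally distributed values. The tests used unlogged CPM and share libraries, so this rate is only a rough guide and an excess over it was not tested. In month 2 CCl4, replicate 3 was high for Slc25a1 (143 CPM, nearest 120) and Elovl6 (223 CPM, nearest 129), replicate 2 was low for Lpin1 (63.8 CPM, nearest 121), and replicate 6 was high for Dgat1 (34.6 CPM, nearest 17.6). In month 2 oil, replicate 1 was high for Nr1h3 (104 CPM, nearest 87.8), and replicate 2 was low for Agpat2 (91.6 CPM, nearest 121) and high for Agpat3 (137 CPM, nearest 118). In month 6 CCl4, replicate 2 was low for Mlxipl (60.7 CPM, nearest 84.4) and replicate 1 high for Pnpla3 (11.9 CPM, nearest 5.32). In month 12 CCl4, replicate 3 was high for Me1 (104 CPM, nearest 81.4), replicate 6 low for Elovl2 (58.1 CPM, nearest 192), replicate 4 high for Lpin1 (298 CPM, nearest 102) and replicate 2 high for Pnpla3 (18 CPM, nearest 4.26). In month 12 oil, replicate 1 was high for Dgat1 (18.3 CPM, nearest 14.8). In month 0, replicate 4 was low for Me1 (22.2 CPM, nearest 36.9) and replicate 6 high for Srebf1 (414 CPM, nearest 251).

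The CCl4 effect differed between month 12 and month 2 by the interaction test in edgeR for Me1 (1.75), Pgd (1.51), Scd2 (2.43) and Elovl3 (-2.92) on the log2 scale. For Me1 the oil level itself was also called lower at month 12 than at month 2.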

How the results depend on the processing

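Of 43 calls of single genes over the 6 comparisons, 19 were made under each alternative run for them and 24 were lost under at least 1. On library totals alone the genes called higher were 4 at month 2 (1 with TMM), 24 at month 6 (9), 18 at month 12 (7) and 13 in the interaction (3), and those called lower were 2 at month 12 (6) and 2 between the oil groups (1). The same scaling reversed Agpat3 at month 6 (0.28) and Slc25a1 (0.31), Elovl1 (0.39), Mlxipl (0.15), Nr1h3 (0.32), Agpat2 (0.34) and Agpat3 (0.42) at month 12. It also moved all genes, with 3160 higher and 179 lower at month 2, 8884 and 177 at month 6, 10331 and 592 at month 12, 5115 and 438 in the interaction, 19 and 164 between the oil groups, and 5270 and 1028 against month 0. In fits of the compared groups only, 4 genes were lower at month 2, 3 lower in the interaction, and 1 higher and 4 lower between the oil groups, with 817 of all genes lower at month 2 and 82 higher and 108 lower between the oil groups. Against month 2 oil alone 3 were higher and 0 lower at month 6, and against month 12 oil alone 657 of all genes were higher. With the Arntl to Dbp covariate 2 were lower at month 6, 3 lower in the interaction and 3 higher against month 0, with 2 of all genes higher between the oil groups and 1152 higher and 1173 lower against month 0. DESeq2 called 3 lower in the interaction and 2 lower between the oil groups, with 808 of all genes lower at month 2 and 70 higher and 70 lower between the oil groups. Without replicates 1 and 6 of month 2 CCl4 and replicate 2 of each oil group 2 were lower in the interaction, and of all genes 540 were higher and 344 lower at month 2 and 3 and 3 between the oil groups. Without the 3 libraries high in pancreas markers, 0 of all genes were higher and 3 lower between the oil groups, and 6 calls of single genes were lost and 1 gained. Between the oil groups, RLE factors and limma-voom each called 9 of all genes lower, and the filter at 1 CPM in 6 libraries called 14 higher and 12 lower. With the replicate number as a block, 0 were lower in the interaction, and 10 of all genes were higher and 9 lower between the oil groups. The labels do not say what same-numbered libraries share. Correlations of 36 such pairs ran from -0.464 to 0.469, with 6 of them over 0.1, and 5 libraries correlated best with their own number. Leaving out each library gave 1 to 3 lower in the interaction and 5 to 9 higher against month 0. The cause of these shifts was not tested beyond the scaling itself. Genes at few CPM, such as Pnpla3, are limited by depth.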
